A study of Mus musculus with 6 samples.

Results

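The genes described here were 10 immediate early and AP-1 genes, namely Fos, Fosb, Jun, Junb, Jund, Egr1, Atf3, Ier2, Dusp1 and Nr4a1. They were taken by symbol from the 23608 rows of the deposited count table, in which each symbol occurred. Of the 10 genes, 9 had a count in at least 1 library, and 8 were among the 11614 genes that passed the filter on low counts and were tested. Nr4a1 did not pass the filter, and Atf3 had a count of 0 in every library.

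The study asked what loss of 1 copy of Usp18, which encodes a protease that removes the ubiquitin-like protein ISG15 and restrains interferon signalling, does to the transcriptome of leukaemia cells. All mice of both groups carried transplanted Usp18+/f UBCER-Cre leukaemia cells driven by AE9a, a shortened AML1-ETO fusion, and received injections once sick. The 3 oil libraries came from GFP+ Lin- c-Kit+ Usp18+/f splenocytes, and the 3 tamoxifen libraries from the same kind of sorted cells labelled Usp18+/D, both collected 3 days after the first injection. The Cre was a tamoxifen-activated enzyme under a ubiquitin C promoter and thus not restricted to 1 cell type, no tamoxifen-treated cells without Cre or without the floxed allele were analysed here, and the labels give no age. The effect of tamoxifen itself and of Usp18 deletion therefore cannot be told apart in this contrast. Libraries are named by the numbers in the column headers of the table, oil 1, 3 and 4 and tamoxifen 1, 2 and 4.

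AP-1 is a family of dimeric transcription factors in which a JUN protein pairs with another JUN, a FOS or an ATF protein and binds DNA. Several of its genes are immediate early genes, transcribed within minutes of a signal through the MAP kinases without new protein synthesis, and their mRNAs are short-lived. In blood cells they respond to cytokines and to stress, including the handling and sorting of cells, and JUN and JUNB have been studied as regulators of myeloid growth and leukaemia.

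The stretches upstream of 5 of these genes show which known control letters they share. The windows are the 250 bases before the RefSeq start in GRCm38.p6, read 5′ to 3′ on the gene's strand, for Fos (chr12:85473640-85473889, plus strand), Jun (chr4:95052223-95052472, minus strand), Dusp1 (chr17:26508473-26508722, minus strand), Nr4a1 (chr15:101266596-101266845, plus strand) and Atf3 (chr1:191183334-191183583, minus strand). Fos and Jun are shown for their large fitted differences between groups, Dusp1 for its full CRE, and Nr4a1 and Atf3 because their counts were low or 0. Capitals mark TGACG on either strand, called the CRE core here. These are the first 5 letters of TGACGTCA, the full CRE that CREB and ATF proteins bind.
Fos: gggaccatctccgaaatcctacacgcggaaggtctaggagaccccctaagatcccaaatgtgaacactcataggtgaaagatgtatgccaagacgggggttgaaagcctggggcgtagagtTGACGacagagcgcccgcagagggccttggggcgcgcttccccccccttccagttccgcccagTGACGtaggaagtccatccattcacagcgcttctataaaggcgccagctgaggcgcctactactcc
Jun: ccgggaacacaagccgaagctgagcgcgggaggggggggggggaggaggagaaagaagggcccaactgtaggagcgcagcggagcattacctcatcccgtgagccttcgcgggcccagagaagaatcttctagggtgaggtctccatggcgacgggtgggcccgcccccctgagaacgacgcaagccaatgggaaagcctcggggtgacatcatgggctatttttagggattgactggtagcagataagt
Dusp1: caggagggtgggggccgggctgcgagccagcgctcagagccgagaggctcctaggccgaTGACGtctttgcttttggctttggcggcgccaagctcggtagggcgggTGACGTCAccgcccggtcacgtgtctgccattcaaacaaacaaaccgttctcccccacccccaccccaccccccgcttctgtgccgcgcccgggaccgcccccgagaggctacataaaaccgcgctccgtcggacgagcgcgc
Nr4a1: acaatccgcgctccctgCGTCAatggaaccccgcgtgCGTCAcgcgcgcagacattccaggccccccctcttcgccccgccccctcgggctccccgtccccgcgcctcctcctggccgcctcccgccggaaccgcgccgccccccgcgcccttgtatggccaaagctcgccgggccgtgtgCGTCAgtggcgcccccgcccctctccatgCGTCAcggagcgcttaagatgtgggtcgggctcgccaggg
Atf3: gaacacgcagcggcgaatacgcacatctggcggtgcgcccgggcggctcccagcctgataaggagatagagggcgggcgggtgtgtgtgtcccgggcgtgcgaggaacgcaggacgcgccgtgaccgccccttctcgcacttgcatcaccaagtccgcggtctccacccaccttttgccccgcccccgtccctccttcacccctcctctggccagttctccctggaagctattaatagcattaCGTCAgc

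RefSeq windows were read for 8 of the 10 genes. None was read for Ier2 or for Egr1, whose chromosome 18 was left out of this step, so the counts below do not cover them. A CRE core stood in 6 of the 8 windows (Fos, Fosb, Junb, Atf3, Dusp1 and Nr4a1), against 17.7% of all 32817 windows of the same length. The Jund window (chromosome 8, 70697489 to 70697738) does not adjoin the GENCODE M21 start of the gene at 70698949. Its lack of a core therefore does not describe the bases before that start. The windows of Atf3, Dusp1 and Nr4a1 lie inside the GENCODE M21 spans of these genes. Those spans start further upstream, at 191218039, 26562128 and 101254269. The cores of these windows therefore describe the RefSeq starts only. In Fos the first bases of its CRE cores lay at -129 and -66 from the start, and in Nr4a1 at -233, -213, -69 and -40. The full CRE, TGACGTCA, which overlaps the CRE core on both strands, was present in 1 window, that of Dusp1, and in 1.55% of all windows. None of the 8 windows held an AP-1 site, TGANTCA, which 6.75% of all windows held, or a CArG box, the site of serum response factor, which 1.47% held. TATAAA stood in the Fos window and in 12.4% of all windows. Jun, the gene with the smallest p in the comparison of the groups, had no exact match to these letters in its window. Its window does hold TGACATCA, which differs from the full CRE in 1 letter and was not counted. Near matches were not searched for in any window. These matches describe the sequence only, and no binding was measured.

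The libraries held between 17118964 and 20741399 estimated counts, so that 3 counts correspond to 0.145 to 0.177 CPM, counts scaled to a common library total. Usp18, the targeted gene, went against its label: it was at 9.12, 10.95 and 11.2 CPM in oil and 15.1, 28.0 and 19.4 CPM in tamoxifen (log2 fold change 0.998 ± 0.23 (SE), edgeR adjusted p = 0.0739), and every group below is named as the libraries are labelled. Whether a gene-level count tells the deleted allele from the intact one was not tested. Tamoxifen 4 stood apart from the other tamoxifen libraries: on the first principal component, with 65.1% of the variance, it lay at -2.99, the others at 37.3 and 47.5 and the oil libraries between -31.1 and -23.4. Over all genes 234 of 11614, or 2.01%, passed an adjusted p of 0.05, 203 higher (1.75%) and 31 lower (0.267%) in tamoxifen. Kit, which encodes the c-Kit of the sort, lay between 439.5 and 781.5 CPM. Ptprc, which encodes the leukocyte antigen CD45 and was not used in the sort, reached at most 0.679 CPM.

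None of the 8 tested genes passed the threshold between oil and tamoxifen, against 2.01% of all genes tested. With edgeR 1 of the 8, Jun, had an unadjusted p under 0.05, against 20.6% of all genes. DESeq2 called 1 of the 8, Jun as higher in tamoxifen, against 8.13% of all genes, and limma-voom called 0 of the 8, against 0.465%. The fitted log2 fold change was positive for 7 of the 8 genes and its median was 0.24, beside positive values in 5809 of the 11614 genes and a median of 0.00012. The values of single libraries show the range behind these numbers, and for most of the genes the tamoxifen libraries lay both above and below oil.

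**Figure D1:**
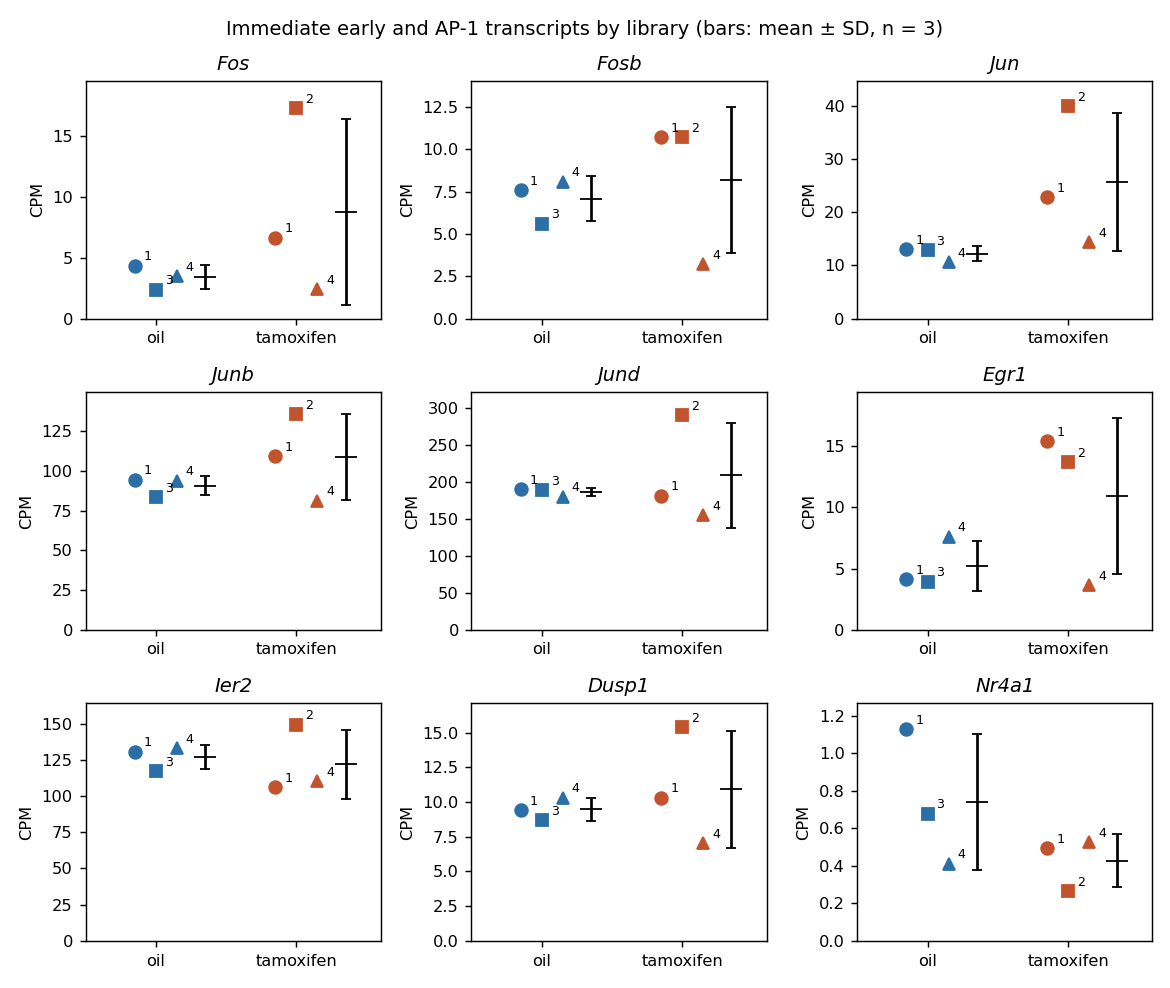
Abundance in CPM of the 9 genes with a count in any library, 1 panel per gene, with 1 numbered point per library for oil (1, 3 and 4) and tamoxifen (1, 2 and 4) and beside them the group mean with its SD (n = 3). Tamoxifen 2 was above every oil library for all 8 tested genes, tamoxifen 4 was below every oil library for 6 of them, and Nr4a1 had 4.50 to 20 counts per library.

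Jun encodes the main transcriptional activator among the JUN proteins and is itself an AP-1 target. Jun was at 13.1, 12.9 and 10.6 CPM in the oil libraries 1, 3 and 4 against 22.8, 39.9 and 14.4 CPM in tamoxifen 1, 2 and 4. The groups did not overlap, with all tamoxifen libraries above all oil libraries, and tamoxifen 4 lay closest to oil. Jun was the only 1 of the 8 tested genes with separate groups, against 25.0% of all genes, 13.3% with tamoxifen higher. The means were 12.2 ± 1.41 CPM in oil and 25.7 ± 13.0 CPM in tamoxifen (SD, n = 3 each). The fitted log2 fold change was 1.07 ± 0.33 (SE, edgeR adjusted p = 0.142). In DESeq2 the log2 fold change was also 1.07 and the adjusted p was 0.0194.

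Junb, the JUN family member that often limits growth in myeloid cells, was far more abundant. Junb was at 94.5, 83.7 and 93.9 CPM in the oil libraries against 109.2, 135.7 and 81.4 CPM in tamoxifen 1, 2 and 4. Tamoxifen 1 and 2 were above every oil library and tamoxifen 4 was below every one, so that the log2 fold change was 0.26 ± 0.17 (adjusted p = 0.397). Jund, which is usually expressed steadily and is less dependent on a signal, was at 189.8, 188.7 and 179.8 CPM in the oil libraries against 181.5, 289.9 and 155.2 CPM in tamoxifen. Only tamoxifen 2 was above the oil libraries, whose highest and lowest values differed 1.06-fold. The log2 fold change of Jund was 0.17 ± 0.21 (adjusted p = 0.655).

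Fos encodes the FOS subunit, which binds DNA only as a partner of a JUN protein. Fos was at 4.36, 2.37 and 3.47 CPM in the oil libraries against 6.67, 17.3 and 2.43 CPM in tamoxifen 1, 2 and 4. Tamoxifen 2 held 292.5 counts, and tamoxifen 4 held 44.0, close to the 49.0 counts of the lowest oil library. The means were 3.40 ± 0.995 and 8.79 ± 7.64 CPM, the log2 fold change was 1.36 ± 0.62, the highest among the 8, and the adjusted p was 0.259. Fosb, a second FOS family gene, was at 7.57, 5.60 and 8.08 CPM in the oil libraries against 10.7, 10.7 and 3.23 CPM in tamoxifen. Its tamoxifen libraries lay on both sides of the oil range, and its log2 fold change was 0.21 ± 0.41 (adjusted p = 0.783). The oil range of Fos was wide as well, with a highest library 1.84-fold above the lowest.

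Egr1 encodes a zinc-finger factor induced through serum response factor by the ERK pathway. Egr1 was at 4.11, 3.93 and 7.61 CPM in the oil libraries against 15.4, 13.7 and 3.62 CPM in tamoxifen 1, 2 and 4. Tamoxifen 1 and 2 were well above every oil library and tamoxifen 4 was the lowest of the 6. The means were 5.22 ± 2.08 and 10.9 ± 6.37 CPM, and the log2 fold change was 1.06 ± 0.50 (adjusted p = 0.275). Ier2, a nuclear protein induced with the FOS and JUN genes, was at 130.7, 117.2 and 132.9 CPM in the oil libraries against 106.0, 149.3 and 110.1 CPM in tamoxifen. It was the only 1 of the 8 with a negative log2 fold change, at -0.06 ± 0.14 (adjusted p = 0.819). Both tamoxifen 1 and tamoxifen 4 lay below the oil range of Ier2.

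Dusp1 encodes a nuclear phosphatase that inactivates p38, JNK and ERK and so feeds back on the pathway that induces it. Dusp1 was at 9.40, 8.68 and 10.26 CPM in the oil libraries against 10.32, 15.4 and 7.02 CPM in tamoxifen 1, 2 and 4. Tamoxifen 2 was above oil, tamoxifen 4 was below it and tamoxifen 1 sat at its upper edge. The log2 fold change was 0.20 ± 0.27 (adjusted p = 0.676). Nr4a1, an orphan nuclear receptor induced in lymphoid and myeloid cells by strong signals, had 20.0, 14.0 and 8 counts in oil and 9, 4.50 and 9.50 counts in tamoxifen. These counts gave 0.739 ± 0.361 CPM in oil and 0.428 ± 0.142 CPM in tamoxifen, with overlapping groups. Atf3, a stress-induced partner and repressor within the ATF family, had 0 counts in all 6 libraries, which allows a level of up to 0.177 CPM, counting error only.

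Levels of different genes were compared per kilobase of exon (CPM per kb), with lengths from GENCODE M21. In oil, Jund was highest at 111.6 ± 3.31 CPM per kb, followed by Ier2 at 83.4 ± 5.60 and Junb at 39.4 ± 2.66 (SD, n = 3). Jun at 3.83 ± 0.443 and Dusp1 at 2.85 ± 0.240 CPM per kb came next, then Fos at 1.45 ± 0.423, Egr1 at 1.16 ± 0.464 and Fosb at 1.13 ± 0.210. The JUN genes thus spanned a wide range, with Jund and Junb well above Jun, and each exceeded both FOS genes in every library. The ranges of neighbours in the oil order were separate except between Fos and Egr1 and between Egr1 and Fosb. In tamoxifen the order was the same but for Fos, whose mean of 3.74 ± 3.25 CPM per kb was above that of Dusp1 at 3.29 ± 1.27, and the ranges of Jund and Ier2 and of every neighbouring pair from Jun to Fosb overlapped.

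**Figure D2:**
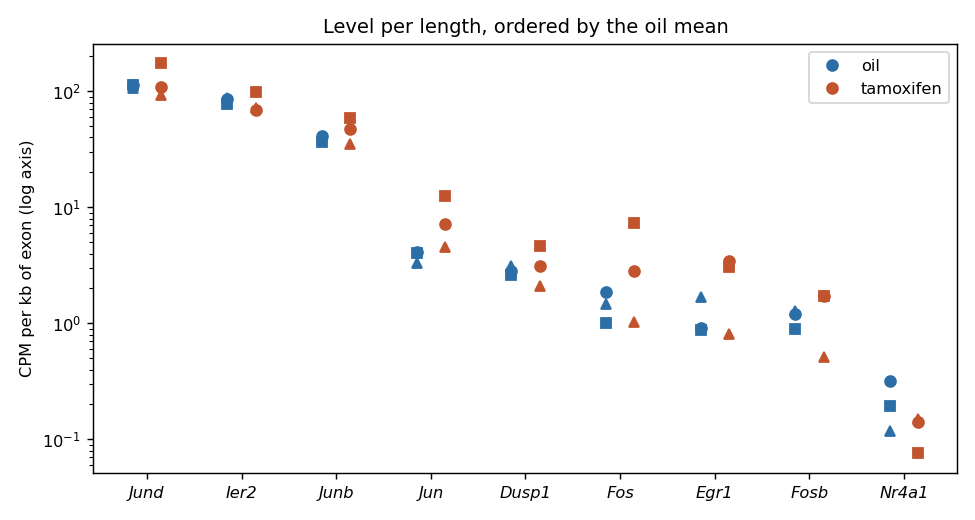
Level per length of the 9 genes with a count, in CPM per kb of exon on a log axis, with 1 point per library (circles for library 1, squares for oil 3 and tamoxifen 2, triangles for library 4). Jund, Ier2 and Junb lay above 35 CPM per kb in every library and the other genes below 13.

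Gene structure limits how finely some of these counts can be read. In GENCODE M21 on GRCm38, Jun (chromosome 4, 95049034 to 95052222, minus strand), Jund (chromosome 8, 70698949 to 70700616, plus strand) and Ier2 (chromosome 8, 84661331 to 84662852, minus strand) have 1 exon, whereas Fos (chromosome 12, 85473890 to 85477273, plus strand) has 4. Exons on the opposite strand overlap those of Jun (Junos), Junb (Prdx2), Jund (Gm11175) and Dusp1 (Ergic1). The strand setting of the counting is not given in the sources used here, so reads of these pairs cannot be told apart.

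The tamoxifen libraries differed in where most of the genes stood, with tamoxifen 2 often highest and tamoxifen 4 lowest of that group for 7 of the 8 genes, against 41.3% of all tested genes. Egr1 and Fosb were highest in tamoxifen 1, and Ier2 was lowest there. Tamoxifen 2 was the highest of the 6 libraries for 6 of the 8 genes (Fos, Jun, Junb, Jund, Ier2 and Dusp1), against 26.6% of all tested genes, and tamoxifen 1 was the highest for the other 2. Tamoxifen 2 lay above every oil library for 8 of 8 genes, against 40.0% of all genes, and tamoxifen 4 lay below every oil library for 6 of 8, against 30.4%. Both held for 6 of 8 genes (Fosb, Junb, Jund, Egr1, Ier2 and Dusp1), against 9.97% of all genes. Only Jun was above oil in tamoxifen 4. The genes share the depth and scaling of each library and are not independent of each other, so these shares are a description.

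**Figure D3:**
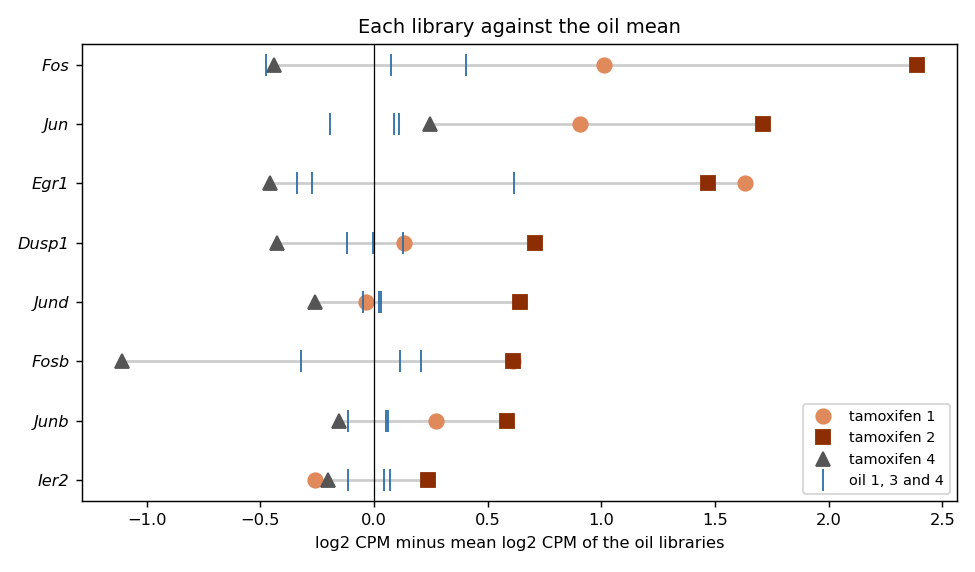
Log2 CPM of each library minus the mean log2 CPM of the 3 oil libraries for the 8 tested genes, with symbols for tamoxifen 1, 2 and 4, ticks for the oil libraries and a grey line over the tamoxifen range. Tamoxifen 2 was above 0 for all 8 genes, up to 2.39 for Fos, and tamoxifen 4 was below 0 for all but Jun, down to -1.11 for Fosb, where the points of tamoxifen 1 and 2 coincide.

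Relative to the mean log2 CPM of the oil libraries, tamoxifen 2 was at 2.39 for Fos, 1.71 for Jun and 1.47 for Egr1. Tamoxifen 1 was at 1.63 for Egr1, 1.01 for Fos and 0.90 for Jun, and at -0.04 for Jund and -0.26 for Ier2. Tamoxifen 4 was at -1.11 for Fosb, -0.46 for Egr1 and -0.44 for Fos. The 10 genes together summed to between 423.7 and 454.8 CPM in oil and to 463.1, 672.2 and 378.0 CPM in tamoxifen 1, 2 and 4. Tamoxifen 2 was thus above and tamoxifen 4 below the oil range also in sum, most of which comes from Jund, Ier2 and Junb.

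The spread between replicates was larger in tamoxifen for all 8 genes, as it was for 76.4% of all genes when the SD was divided by the mean. The median SD of the 8 genes was 9.99% of the mean in oil and 44.6% in tamoxifen, beside 7.11% and 14.4% over all tested genes. Fos varied most in tamoxifen, with a 7.10-fold ratio of highest to lowest library, followed by Egr1 at 4.25-fold, Fosb at 3.31-fold and Jun at 2.77-fold. Ier2 varied least, at 1.41-fold. The steady genes in oil were Jund, with an SD of 2.97% of its mean, Ier2 at 6.72% and Junb at 6.75%.

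The comparison turned on tamoxifen 4. Without tamoxifen 4, 5 of the 8 genes passed as higher in tamoxifen, in a fit that called 19.2% of all genes higher and 17.1% lower. These were Fos (log2 fold change 1.81 ± 0.38, adjusted p = 0.00484), Egr1 (1.48 ± 0.27, adjusted p = 0.00231), Jun (1.36 ± 0.21, adjusted p = 0.00116), Fosb (0.60 ± 0.19, adjusted p = 0.0356) and Junb (0.43 ± 0.10, adjusted p = 0.00876). Jund at 0.34 (adjusted p = 0.107), Dusp1 at 0.44 (adjusted p = 0.101) and Ier2 at 0.0089 (adjusted p = 0.965) did not pass in that fit. Without tamoxifen 2, in contrast, Fos was at 0.42 (adjusted p = 0.726), Jun at 0.61 (adjusted p = 0.346) and Egr1 at 0.87 (adjusted p = 0.565), and 0 of the 8 passed, against 0.119% of all genes called higher. Nothing in the labels sets tamoxifen 4 apart, and the fit on all 6 libraries is the result reported.

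**Figure D4:**
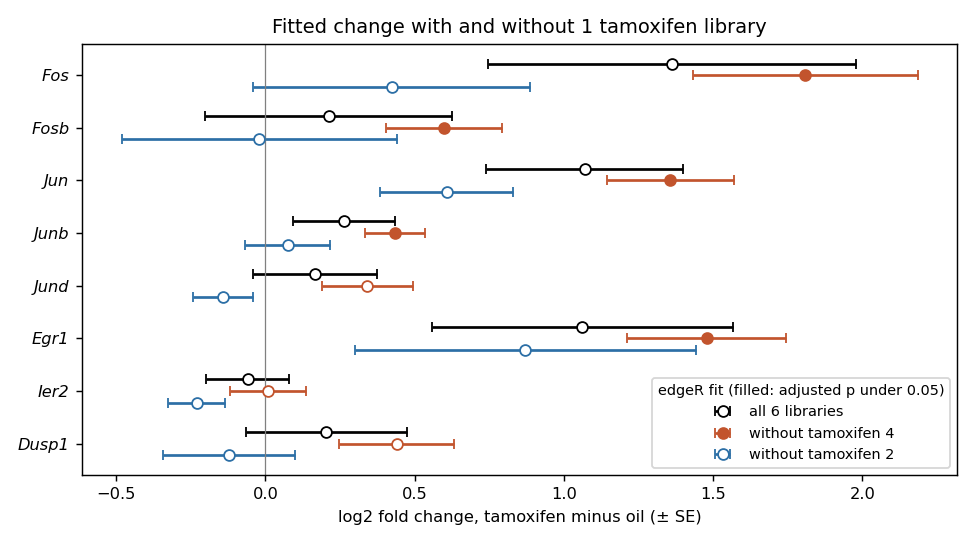
Log2 fold change of tamoxifen over oil for the 8 tested genes on all 6 libraries, and in the fits without tamoxifen 2 and without tamoxifen 4, with bars for the standard error and points filled where the adjusted p was under 0.05. On all 6 libraries 0 of 8 passed, without tamoxifen 4 the genes Fos, Fosb, Jun, Junb and Egr1 passed, and without tamoxifen 2 again 0 passed.

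The other subunits that pair within AP-1 showed no common direction. Of 8 listed (FOS-related, BATF, JDP2 and ATF genes) 5 were tested and 0 passed, 2 of them positive and 3 negative, with a median log2 fold change of -0.09. Batf, which encodes a partner of JUN proteins without an activation domain of its own, was at 1.55, 3.00 and 2.19 CPM in the oil libraries against 5.46, 6.49 and 3.95 CPM in tamoxifen 1, 2 and 4. All tamoxifen libraries were above oil, and the log2 fold change was 1.23 ± 0.31 (edgeR adjusted p = 0.0897, DESeq2 adjusted p = 0.00885, edgeR without tamoxifen 4 adjusted p = 0.00521). Fosl1, which encodes FRA1, was at 1.29, 0.703 and 0.978 CPM in the oil libraries against 0.439, 0.325 and 0.442 CPM in tamoxifen. All its tamoxifen libraries were below oil, at -1.23 ± 0.43 (adjusted p = 0.18), and Fosl2 was at 0.26 (adjusted p = 0.432).

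Among 30 further immediate early genes 21 were tested and 0 passed in edgeR, and the fitted values were positive for 17 and negative for 4. Their median log2 fold change was 0.56, beside 0.00012 over all tested genes. Of the 21, 6 had an unadjusted p under 0.05, against 20.6% of all genes: Ier3, Btg1, Zfp36l2, Mcl1 and Phlda1 with higher and Nr4a2 with lower values in tamoxifen, of which Ier3, Zfp36l2, Mcl1 and Nr4a2 are named after their values were seen. Btg1, an antiproliferative gene, was at 25.5, 34.4 and 33.0 CPM in the oil libraries against 78.3, 112.1 and 30.0 CPM in tamoxifen 1, 2 and 4 (log2 fold change 1.24 ± 0.40, adjusted p = 0.156). Phlda1 at 1.11 ± 0.45 (adjusted p = 0.224) and Klf2, a Krüppel-like factor, at 1.21 ± 0.79 (adjusted p = 0.399) had the same order, with tamoxifen 2 highest and tamoxifen 4 inside or below the oil range. Without tamoxifen 4, 13 of the 21 passed as higher and 1 as lower, against 19.2% and 17.1% of all genes, and without tamoxifen 2, 0 passed. The summed level of this list was 1547.9 to 1590.6 CPM in oil and 2075.7, 2488.2 and 1493.2 CPM in tamoxifen 1, 2 and 4.

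Genes that signal to AP-1 had medians near 0. Of 22 ERK, JNK and p38 pathway kinases 19 were tested and 0 passed, with a median log2 fold change of -0.08. Map2k3, a kinase that activates p38, was at 0.55 ± 0.18 (adjusted p = 0.164), Mapkapk2, a kinase downstream of p38, at 0.43 ± 0.12 (adjusted p = 0.107) and Rps6ka5, which encodes MSK1, at 0.41 ± 0.12 (adjusted p = 0.121). DESeq2 called Mapkapk2 (adjusted p = 0.0297) and Rps6ka5 (adjusted p = 0.0409) but not Map2k3 (adjusted p = 0.056). These kinases were named for the largest absolute values of their list. The 8.13% of all genes that DESeq2 called is therefore no measure for them. Without tamoxifen 4, 5 of the 19 passed in edgeR as higher and 1 as lower, against 19.2% and 17.1% of all genes, and without tamoxifen 2, 0 passed. Of 9 other MAP kinase phosphatases 5 were tested and 0 passed, with a median of -0.0045. Dusp2 was at 3.32, 3.25 and 4.32 CPM in the oil libraries against 5.32, 7.56 and 5.58 CPM in tamoxifen, with no overlap, at 0.76 ± 0.24 (adjusted p = 0.143), while Dusp16 was at -0.60 (adjusted p = 0.441) and Dusp8 at -0.17 (adjusted p = 0.873). All 11 serum response and CREB family factors of the list were tested and 0 passed, with a median of 0.02, and the 3 with the largest absolute values were Elk3 at 1.28 ± 0.55 (adjusted p = 0.238), Crem at 0.47 ± 0.17 (adjusted p = 0.202) and Mkl2 at 0.31 (adjusted p = 0.225).

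**Figure D5:**
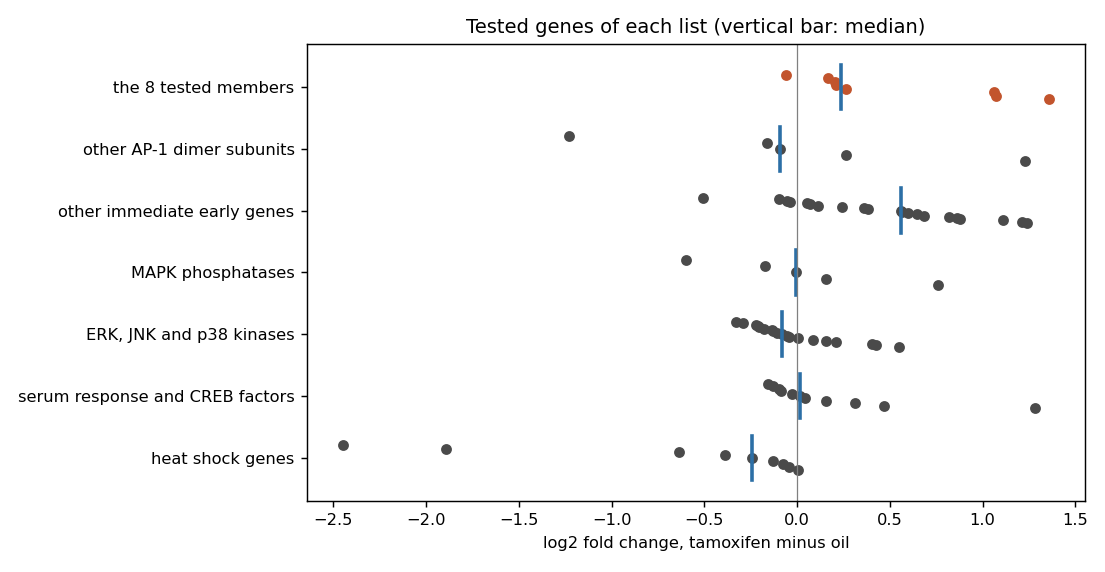
Log2 fold change of tamoxifen over oil for each tested gene of the immediate early and AP-1 genes and of 6 related lists, with 1 point per gene and a line at each list's median. The median was 0.56 for the further immediate early genes, 0.24 for the 8 tested genes described here and between -0.24 and 0.02 for the other lists.

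Heat shock genes, which handling of cells can induce along with the FOS and JUN genes, had mostly negative values. Of 10 listed 9 were tested and 0 passed, 8 of the 9 were negative, and the median log2 fold change was -0.24. Without tamoxifen 4, 5 of the 9 passed as lower and 0 as higher, against 17.1% and 19.2% of all genes. Without tamoxifen 2, 0 passed. Hspa1a was at 29.4, 23.2 and 33.5 CPM in the oil libraries against 0.549, 1.92 and 13.3 CPM in tamoxifen 1, 2 and 4, which gave -2.45 ± 0.82 on the log2 scale (adjusted p = 0.168, and 2.96e-05 without tamoxifen 4). Hspa1b was at -1.89 ± 0.70 (adjusted p = 0.202) and Hsph1 at -0.64 ± 0.31 (adjusted p = 0.29), and Hspa1a and Hspa1b are near-identical copies whose reads the counting could split. Tamoxifen 4 was the tamoxifen library nearest to oil for Hspa1a and for Fos, Jun, Junb, Egr1 and Ier2. For Fosb it was the farthest, at -1.11 from the oil mean on the log2 scale against 0.61 in tamoxifen 1 and 2. Tamoxifen 1 was nearer to oil for Jund and Dusp1. Over all tested genes tamoxifen 4 was also nearest to oil on the first principal component, at -2.99. The part of handling in these results was not tested, and the time from death to sorting is not given in the sources used here.

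Several markers of cell types differed among the tamoxifen libraries too. The 8 mast cell and basophil markers summed to 2377.9 to 2643.2 CPM in oil and to 4274.2, 6843.5 and 3108.5 CPM in tamoxifen 1, 2 and 4. Jun and the erythroid, macrophage and T and NK cell sums had this order too. Tamoxifen 4 was the lowest tamoxifen library for 41.3% of all tested genes. Of the 8 mast cell and basophil markers, 2 passed as higher, Fcer1a (2.12, adjusted p = 0.0381) and Tpsb2 (4.16, adjusted p = 0.0402), against 1.75% of all genes. The fitted value was positive for 7 of the 8 and negative for 1, Ms4a2, which was abundant in oil at 896.2 CPM (-0.04, adjusted p = 0.807). The 7 erythroid markers used summed to 3571.1 to 5711.7 CPM in oil and to 6812.3, 7252.1 and 2882.2 CPM in tamoxifen, and 0 of 7 passed in edgeR, with an unadjusted p under 0.05 for 2, Klf1 and Epor, named after their values were seen, both lower in tamoxifen. Cd34, a progenitor marker, rose from 9.94 ± 1.68 to 96.3 ± 48.3 CPM (log2 fold change 3.27 ± 0.41, adjusted p = 0.0232). Macrophage markers summed to 4.19 to 8.61 CPM in oil and 7.40 to 15 CPM in tamoxifen, with 0 of 7 tested passing. B cell markers reached at most 0.878 CPM in sum, with Ms4a1 and Pax5 at 0, and neutrophil markers at most 0.978 CPM, with S100a8 and Ly6g at 0. T and NK cell markers summed to 1.13 to 2.57 CPM in oil and 7.65 to 56.4 CPM in tamoxifen, nearly all of it Nkg7 (4.03, adjusted p = 0.041), with Cd3e, Cd8a, Gzma, Prf1 and Klrb1c at 0. The part of these cells in the values of the AP-1 genes was not tested, and in bulk RNA more or fewer cells of a type and more or less RNA per cell cannot be told apart.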

How the data were processed

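RNA of sorted cells from 3 oil-injected and 3 tamoxifen-injected mice was sequenced, and the labels name STAR, DESeq2 and the mm10 build in the submitters' processing notes. The deposited table holds estimated counts per gene that the authors had not normalized, in steps of 0.5, with 25.9% to 27.3% of values not whole in each library; the counting program and its strand setting are not given in the sources used here. The 2 column numbers 3 (oil) and 2 (tamoxifen) match no sample title, so these columns were assigned to their group only. The table held 26 rows whose symbols had been turned into dates.

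Counts were rounded and tested with the edgeR quasi-likelihood test (edgeR 4.0.16, R 4.3.3) after TMM scaling and filterByExpr, with all 6 libraries, no block and Benjamini-Hochberg adjustment over 11614 genes, called under 0.05. CPM values are counts scaled to the library total. DESeq2 1.42.0 and limma-voom (limma 3.58.1), other scalings and filters, the replicate block and leaving out each library were alternatives. The steps were tested on simulated data with known changes. The study names 3 mice per group, and p-values measure the spread between these. No pair of libraries agreed within sampling noise.

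The 10 genes, the 14 gene lists and the tests were chosen with earlier results of these data known, so no list was tested as a set. Named were the 10 genes, Usp18 and, from each related list, genes that passed and at most 3 tested genes with the largest absolute log2 fold change; marker genes are named where a result turns on them. A marker gene of the erythroid list is not reported here. Mrtfa and Mrtfb are in the table as Mkl1 and Mkl2, each counted once. Gene positions come from GENCODE M21 (GRCm38, mm10), and upstream sequences from RefSeq (GRCm38.p6).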

Additional observations from a re-analysis of the deposited data

How the results depend on the processing

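The count of the 8 tested genes that passed was 0 in all alternatives but 2: DESeq2 called 1 (Jun) and the fit without tamoxifen 4 called 5, so that leaving out 1 library gave 0 to 5. Over all genes, against 203 higher and 31 lower, DESeq2 called 713 and 231, limma-voom 48 and 6, testing without the low-count filter 372 and 61 and a filter at a mean of 50 counts 120 and 17; leaving out 1 library gave 8 to 2278 higher and 0 to 2024 lower. Unadjusted p under 0.05 was reached by 1373 to 5501 genes across the leave-one-out fits. Among the log2 fold changes of 27 named genes, 335 alternative values kept direction and call, 27 passed the threshold only in the alternative and 11 reversed. The cause was not tested.

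The reversed values were small in the fit on all libraries. Leaving out 1 library, Fosb lay between -0.029 (without tamoxifen 1) and 0.60, and was at -0.02 without tamoxifen 2. Jund lay between -0.14 (without tamoxifen 2) and 0.34, Dusp1 between -0.12 (without tamoxifen 2) and 0.44, Ier2 between -0.23 and 0.031 (without tamoxifen 1), with 0.0089 without tamoxifen 4, and Dusp8 between -0.59 and 0.28 (without oil 3), with 0.20 without tamoxifen 4.

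With the replicate block 215 genes were called higher and 26 lower, and 0 of the 8 genes passed. Fosb was then at -0.37, Jund at -0.14 and Dusp1 at -0.21. Fos was at 0.074 and Junb at 0.0013, and Hspa1a (-2.93) and Hspa1b (-2.56) passed, both with an adjusted p of 0.00238. Only the numbers 1 and 4 occur in both groups, so oil 3 and tamoxifen 2 add nothing to the blocked difference. Deviations from the group means had a correlation of -0.127 for number 1 and 0.0616 for number 4. With 3 libraries per group, these values cannot decide whether libraries of the same number share more than the number. In the 6 fits that kept Nr4a1 its log2 fold change was between -1.05 and -0.34 and it did not pass. Depth limits Nr4a1, with 4.50 to 20 counts per library, and Atf3, with 0.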
